A study of Mus musculus with 24 samples.

Results

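Whole lungs of mice at postnatal day 3 (P3) were compared between 4 libraries titled as conditional knockout (CKO) of Sin3a and 4 titled as control. These 8 libraries, taken by the stage given in their titles, are part of 24 libraries from 3 stages, with 4 control and 4 CKO lungs at E16 (embryonic day 16), at birth (P0) and at P3. The question posed by the design was which genes differ between the genotypes at each stage.

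Sin3a is a scaffold protein without DNA-binding activity of its own. It holds the histone deacetylases Hdac1 and Hdac2 and is brought to promoters by sequence-specific factors, the MXD antagonists of MYC among them, where deacetylation of histones is tied to lower transcription. In the days after birth the mouse lung thins its walls and divides its air sacs, a process in which fibroblasts, myofibroblasts, capillary endothelium and flat alveolar type 1 cells take part together.

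All 8 P3 lungs are titled with the Tbx4rtta and tetocre transgenes and with Sin3a F/F, that is, 2 floxed alleles. By title the P3 controls thus carry the same alleles as the P3 CKO lungs, and only the words Control and CKO in the titles set the groups apart. The genotype field of the labels separates the same libraries into control and conditional knockout. Controls of the other stages are titled Sin3a F/+ with the same transgenes, and CKO lungs of those stages Sin3a F/F. Tbx4-rtTA drives the tetO-Cre transgene in lung mesenchyme in the presence of doxycycline, which pregnant dams were fed at embryonic day 12. Epithelial, endothelial and blood cells of the same whole lungs are therefore measured together with the mesenchyme in which Cre is made. The labels call the libraries biological replicates, and p-values set the difference between the groups against the spread between these libraries.

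The P3 libraries held 27.49 to 35.45 M counts, with TMM factors of 0.984 to 1.02. Levels are given as CPM (counts scaled to a common library size) using TMM factors, in the order of replicates 1 to 4, and log2 fold changes as CKO minus control ± SE. Lung markers were present in every library, with Sftpc, the surfactant protein C gene, at 6908.5 to 9688 CPM in controls and at 6782 to 7966 CPM in CKO lungs. Foxn1 of thymus was at 0 in all 8 libraries, but other genes on lists for tissues other than lung were present and varied. Whether these reads came from lung or from another tissue was not tested. Rag1, also listed for thymus, was at 0.446, 0.331, 5.71 and 4.63 CPM in controls and 1.67, 0.368, 8.54 and 1.55 CPM in CKO lungs. Myh6, listed for heart and skeletal muscle, was at 352 to 922 CPM in controls and 436 to 785 CPM in CKO lungs. Ucp1, listed for fat, was at 0.139 to 6.35 CPM and 0.0709 to 13.8 CPM. Xist exceeded 100 CPM in control 4, CKO 1 and CKO 3, so that 1 of 4 control and 2 of 4 CKO lungs were of that class.

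CKO 1 stood apart from the other 3 CKO libraries. In a principal component analysis of the 2000 most variable genes, CKO 2 and CKO 4 lay at 33.3 and 33.9 on the first component (26.6% of the variance), CKO 3 at -1.69, CKO 1 at -16.0 and the controls between -19.3 and -5.61. The second component (17.8%) set CKO 1 apart at -35.3. CKO 1 also had the lowest sample quality weight by limma, 0.375, against 0.730 to 2.62 in the others. Its deviation from the other CKO libraries followed transcript GC content (rho = 0.457 across 17078 genes, with medians of -0.18 in the lowest and 0.37 in the highest of 5 equal GC bins of genes on the log2 scale). Control 1 and control 3 had rho of 0.471 and -0.472 against the other controls, so such a trend was not particular to CKO 1. Malat1, a nuclear RNA, was at 553 CPM in CKO 1 and at 802 to 1667 CPM in the other 7 libraries. The count of genes called is therefore given for the 8 libraries and again for the 7 without CKO 1. No member of the gene lists described below passed the test over 8 libraries. Counts of called list members, and the values of many single genes, are given only without CKO 1. That library was left out because of its expression values, so p-values of the 7 take this choice as given.

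**Figure D1:**
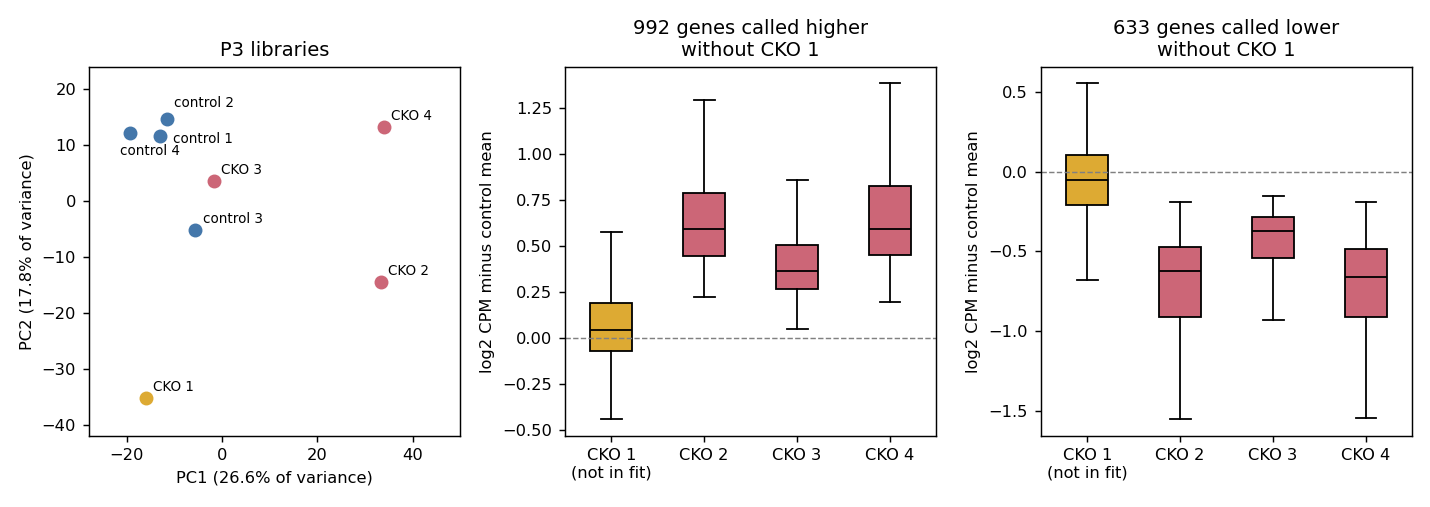
P3 libraries on the first 2 principal components (axes give the percent of variance; controls blue, CKO 1 yellow, other CKO red), and log2 CPM of each CKO library minus the control mean for the 992 genes called higher and the 633 called lower in the fit without CKO 1 (boxes: quartiles and median; whiskers: to 1.5 times the quartile range). The medians of CKO 1, 0.04 and -0.05, lie near 0, and those of CKO 3, 0.36 and -0.37, lie nearer to 0 than those of CKO 2 and CKO 4.

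Sin3a itself (ENSMUSG00000042557, chromosome 9, 57072040 to 57128366 in mm10) showed no loss of reads in CKO lungs. It was at 88.7, 103, 100.001 and 98.7 CPM in controls 1 to 4 and at 107, 104, 100.2 and 101 CPM in CKO 1 to 4. The groups overlapped, with a log2 difference of 0.08 ± 0.07 (edgeR adjusted p = 0.657) over 8 libraries and 0.06 ± 0.07 without CKO 1 (adjusted p = 0.673). A count over the whole gene includes exons outside a floxed segment and cells without Cre, so this level does not check the deletion. Sin3b, the paralogous scaffold, was at 62.1, 68.0, 64.2 and 70.5 CPM in controls and 70.1, 82.4, 74.4 and 86.9 CPM in CKO lungs. CKO 2, 3 and 4 lay above all controls, but the test narrowly missed its threshold without CKO 1 (0.29 ± 0.08, edgeR adjusted p = 0.0501) and missed it over 8 libraries (0.24 ± 0.09, adjusted p = 0.240).

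Across the 8 libraries, 17113 genes were tested (edgeR quasi-likelihood, Benjamini-Hochberg over all genes), and 2 passed at an adjusted p under 0.05 (0.0117%), both lower in CKO lungs, with 0 higher. At an unadjusted p under 0.05 there were 1417 higher genes (8.28%) and 1217 lower genes (7.11%). In 1218 genes (7.12%) the 4 CKO and the 4 control libraries did not overlap. DESeq2 called 579 genes on the same 8 libraries, 398 higher and 181 lower, and limma-voom with sample quality weights called 1162, 686 higher and 476 lower. Of those calls, 501 and 1011 were also among the genes called without CKO 1, in the same direction.

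Both genes called over 8 libraries were loci of uncertain read assignment. Gm9008 (ENSMUSG00000072476, chromosome 6, 76495432 to 76497784) was at 3.57, 3.75, 2.89 and 4.73 CPM in controls and at 0.177, 0.0566, 0.0289 and 0 CPM in CKO lungs. CKO 1 was the highest of the CKO libraries and still far below every control (-5.80 ± 0.49, edgeR adjusted p = 0.00298). Its transcript is 99.05% identical to that of Rnf26 over 2322 of 2353 bases, and Rnf26 itself was at 34.1, 29.0, 27.8 and 32.3 CPM in controls and 42.1, 36.2, 39.3 and 29.6 CPM in CKO lungs (0.26 ± 0.12, edgeR adjusted p = 0.345). AC160637.1 (ENSMUSG00000111394, chromosome 9, 59672814 to 59676700), annotated as a transcript without assigned function, lies inside the pyruvate kinase gene Pkm and on its strand. It was at 22.2, 26.0, 24.8 and 23.4 CPM in controls and 13.8, 12.8, 11.5 and 12.0 CPM in CKO lungs (-0.94 ± 0.11, edgeR adjusted p = 0.0224). The groups did not overlap, whereas Pkm ranged from 256 to 363 CPM in controls and 221 to 309 CPM in CKO lungs (-0.26 ± 0.13, adjusted p = 0.389). Both also passed without CKO 1 (-6.78 ± 0.47 and -0.99 ± 0.11, edgeR adjusted p = 0.000283 and 0.00198). Gm9008 passed as well at E16 (-8.32 ± 0.47, edgeR adjusted p = 0.000102) and at P0 (-7.55 ± 0.61, edgeR adjusted p = 0.00135). AC160637.1 was at -0.99 ± 0.19 at E16 and -0.93 ± 0.22 at P0 and did not pass (edgeR adjusted p = 0.309 and 0.297).

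Among well-measured genes whose 4 CKO libraries all lay above all 4 controls, the 8 with the smallest p were Asz1, Cyp46a1, Rcl1, Pcx, Slc6a9, Peli3, Ptger4 and Srm. None of them passed the test over 8 libraries (adjusted p from 0.150 to 0.162), and each rose without CKO 1. Asz1 (ENSMUSG00000010796, chromosome 6, 18050964 to 18109061), which encodes a protein of germ-cell granules needed for piRNA production, was at 1.20, 2.21, 1.67 and 1.115 CPM in controls and 3.62, 9.28, 8.25 and 7.49 CPM in CKO lungs. CKO 1 was between the controls and the other CKO lungs, and the log2 difference was 2.21 ± 0.32 with it and 2.43 ± 0.24 without it (edgeR adjusted p = 0.150 and 0.00185). Cyp46a1 (chromosome 12, 108334381 to 108362234), the cholesterol 24-hydroxylase gene best known in neurons, was at 3.53, 2.13, 3.00 and 2.33 CPM in controls and 6.88, 23.7, 13.8 and 25.9 CPM in CKO lungs. CKO 1 had the smallest and CKO 3 the next smallest CKO value (2.67 ± 0.39 over 8 libraries and 2.94 ± 0.25 without CKO 1, edgeR adjusted p = 0.150 and 0.00184).

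Rcl1, a factor in maturation of the small ribosomal RNA, was at 12.7, 11.4, 12.6 and 12.2 CPM in controls and 17.7, 29.6, 22.9 and 28.8 CPM in CKO lungs. Pcx, the pyruvate carboxylase gene, was at 27.7, 19.5, 21.3 and 26.3 CPM and 36.4, 53.7, 41.4 and 46.1 CPM. In both genes CKO 1 lay above the controls and below the other CKO lungs, with log2 differences without CKO 1 of 1.15 ± 0.12 and 0.99 ± 0.14 (edgeR adjusted p = 0.00192 and 0.00525). Slc6a9, which encodes a glycine transporter, differed from these in that CKO 1 was as high as the rest, at 17.3, 15.2, 13.3 and 16.7 CPM in controls and 27.8, 28.6, 21.5 and 25.8 CPM in CKO lungs. Its log2 difference was 0.73 ± 0.13 with CKO 1 and 0.70 ± 0.13 without it (adjusted p = 0.162 and 0.0140, edgeR). Peli3, a Pellino ubiquitin ligase, and Ptger4, the EP4 receptor for prostaglandin E2, rose by 1.49 ± 0.21 and 1.24 ± 0.17 without CKO 1. Slc6a9 and Ptger4 overlap other genes, as do Sin3a, Pcx, Gpr137c, Rerg, Pde3a, Cacnb4, Pno1, Nhp2, Rpl5, Rbl2, Ccnd1, Hopx, Ramp2, Prx, Adh1, Cd34, Gsn, Timp1, Adamts2 and BC065403 among the genes chosen for naming, and the strand setting of the counting is not given in the sources used here.

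Of the genes whose CKO libraries all lay below the controls, those with the smallest p over 8 libraries, after the 2 called loci, were Pts, Rerg, Stc1, Pde3a, Colec10, Tmem100, Trim12c and Cd276. Their adjusted p ran from 0.150 to 0.162 over 8 libraries, and all 8 fell without CKO 1. Pts, an enzyme of tetrahydrobiopterin synthesis, was at 30.2, 29.7, 33.0 and 26.3 CPM in controls and 17.6, 14.4, 18.4 and 19.3 CPM in CKO lungs. Rerg, a RAS-like growth inhibitor, was at 42.6, 41.6, 45.6 and 42.5 CPM and 33.3, 30.7, 31.4 and 31.2 CPM. For both genes CKO 1 was within the range of the other CKO lungs or next to it, and leaving it out barely moved the log2 difference (-0.78 and -0.78 for Pts, -0.45 and -0.47 for Rerg). Tmem100, a membrane protein of endothelial BMP signalling, was at 239.8, 263, 268 and 263 CPM in controls and 206, 123, 157 and 144 CPM in CKO lungs. There CKO 1 stood between the groups, and the log2 difference was -0.71 ± 0.14 with it and -0.87 ± 0.09 without it (edgeR adjusted p = 0.162 and 0.00192).

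**Figure D2:**
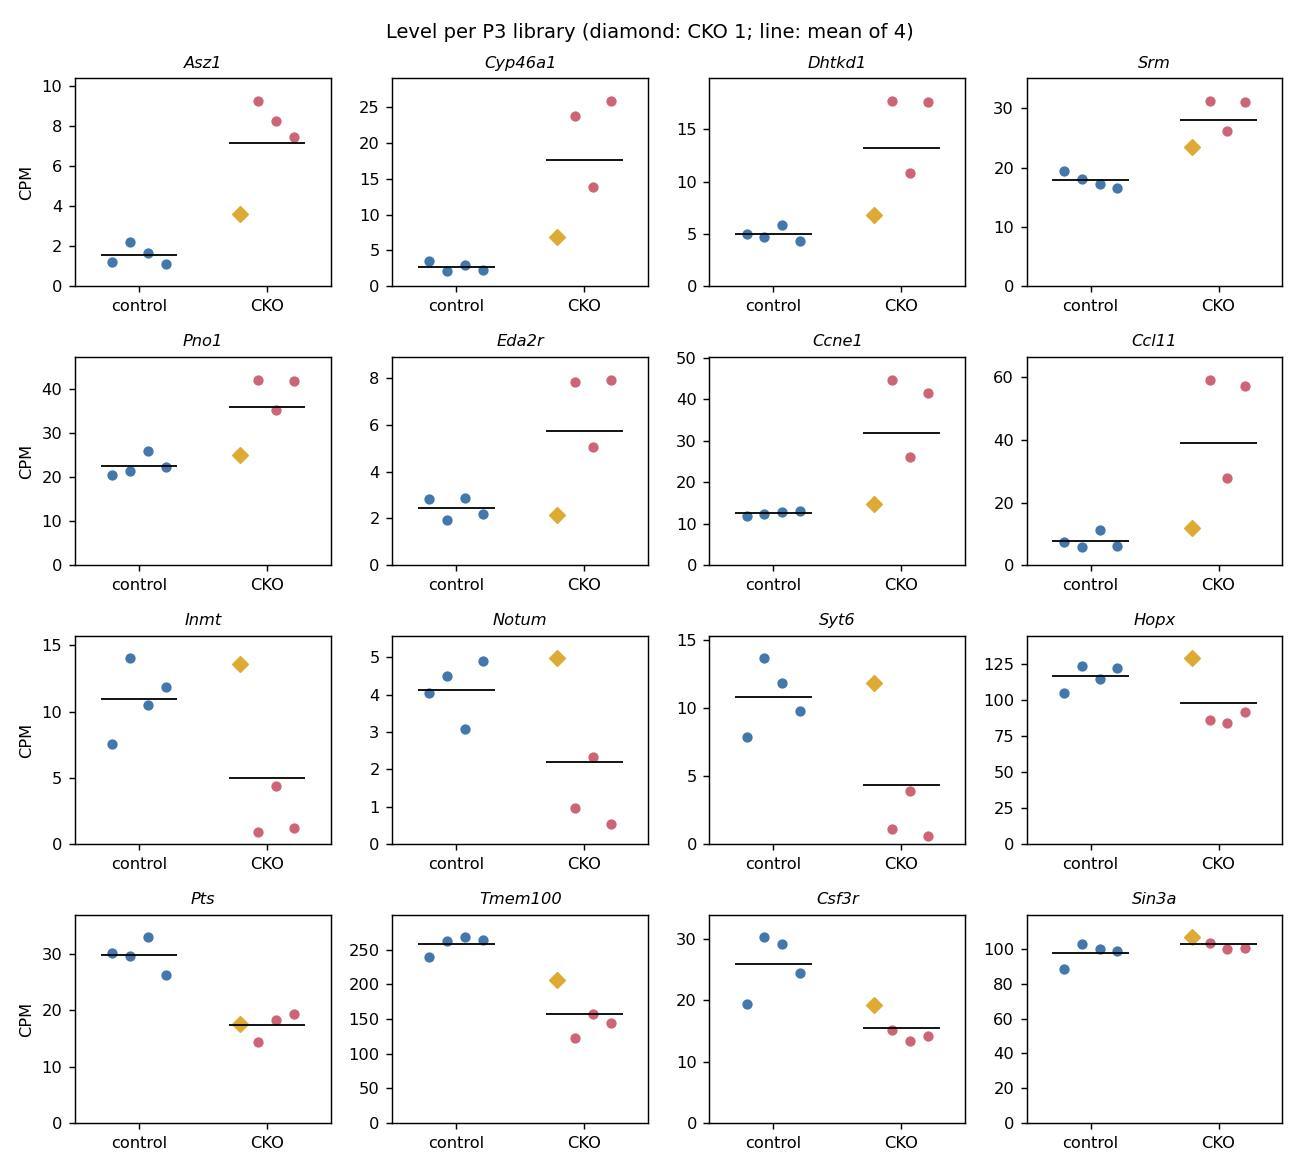
Level in CPM (linear axis from 0) of 16 genes in each P3 library, with controls in blue, CKO 1 as a yellow diamond, the other CKO libraries in red and lines at the mean of 4. CKO 1 lies with the other CKO lungs for Pts, between the groups for Asz1, Cyp46a1, Srm and Tmem100, and among or above the controls for Inmt, Notum, Syt6 and Hopx, while Sin3a overlaps between the groups.

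Without CKO 1, 17369 genes were tested and 1625 passed (9.36%), 992 higher (5.71%) and 633 lower (3.64%) in CKO lungs. This count rested on few libraries. It was 86 when CKO 2 was left out as well, 199 without CKO 4, 425 without control 4, 647 without control 2 and 2482 without CKO 3. CKO 3 was the nearest to the controls of the 3 CKO libraries in 89.3% of the 992 and 83.1% of the 633 genes, with median differences from the control mean of 0.36 and -0.37 on the log2 scale. Those of CKO 2 were 0.59 and -0.62, and those of CKO 4 were 0.59 and -0.66. CKO 1, which had no part in these calls but was set against the same controls, had medians of 0.04 and -0.05. It was above the control mean in 58.4% of the genes called higher, 42.2% of those called lower and 49.0% of all genes tested, and within the range of the controls in 49.7%, 51.7% and 55.2%. In 315 of the 992 and 183 of the 633 genes all 4 CKO libraries lay beyond all controls. Over all genes tested in 8 libraries they did so in 3.59% (higher) and 3.53% (lower). The 992 and 633 were called from CKO 2, 3 and 4 against these controls, which left little but the place of CKO 1 open. The shares are therefore not comparable and are no measure of how far CKO 1 went with the others. CKO 1 and CKO 3 were both of the high Xist class, and with that class as a covariate 286 genes passed over 8 libraries, 269 of them also called without CKO 1. With the GC trend of each library removed the count over 8 libraries was again 2.

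The largest rises without CKO 1, among genes well measured and not overlapping between groups, were in Cyp46a1, Ccl11, Asz1, Ly86, Gprc6a, Shisa3, Gpr137c, Bcas3os1, Rpp40 and Dhtkd1. Ccl11 (chromosome 11, 82057823 to 82062955), which encodes the eosinophil attractant eotaxin, was at 7.55, 5.73, 11.2 and 6.15 CPM in controls and 11.7, 59.2, 27.9 and 57.1 CPM in CKO lungs. CKO 2 and CKO 4 were about equal, CKO 3 was lower and CKO 1 just above the highest control (2.65 ± 0.33 without CKO 1, edgeR adjusted p = 0.00850). Ly86, encoding MD-1, the partner of the B cell and macrophage receptor RP105, was at 5.66, 4.41, 7.38 and 6.66 CPM and 8.33, 32.6, 18.5 and 35.9 CPM, in the same order of libraries (2.26 ± 0.25, adjusted p = 0.00378, edgeR). Shisa3 (chromosome 5, 67607882 to 67623552), whose protein holds back the maturation of WNT and FGF receptors, was at 11.5, 12.4, 14.5 and 10.9 CPM in controls and 9.51, 58.6, 26.4 and 46.0 CPM in CKO lungs. CKO 1 was here below every control, so that the log2 difference was 1.51 ± 0.47 with it and 1.82 ± 0.24 without it (edgeR adjusted p = 0.215 and 0.00792). Gprc6a, a receptor for amino acids, rose by 2.01 ± 0.37, with 41.1 CPM in CKO 4 alone against 6.56 CPM in CKO 1. Rpp40, a subunit of RNase P, rose by 1.64 ± 0.23 and Dhtkd1, a mitochondrial enzyme of lysine breakdown, by 1.63 ± 0.19. Bcas3os1 lies antisense to Bcas3 and Shisa3 opposite Atp8a1, and whether the counting separated reads of these pairs by strand is not known from the labels.

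The promoters of risers are shown because MXD factors, which recruit Sin3a, bind the palindrome CACGTG. Sequences are RefSeq promoters of GRCm38.p6, 250 bases before to 50 after an annotated start, on the strand of the gene, with CACGTG in capitals. Pno1 (chr11:17211540-17211839, minus strand), Rpl14 (chr9:120571267-120571566, plus strand), Dhtkd1 (chr2:5942743-5943042, minus strand) and Pcx (chr19:4510222-4510521, plus strand, its first start) held it, and TCCCGC, an E2F-type motif, is also in capitals where present.
Pno1: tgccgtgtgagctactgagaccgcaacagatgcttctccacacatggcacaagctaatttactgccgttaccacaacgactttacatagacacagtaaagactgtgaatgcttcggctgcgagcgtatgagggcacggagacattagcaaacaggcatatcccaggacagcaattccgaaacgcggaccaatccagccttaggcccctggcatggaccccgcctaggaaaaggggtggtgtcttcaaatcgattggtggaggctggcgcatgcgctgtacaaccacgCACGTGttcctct
Rpl14: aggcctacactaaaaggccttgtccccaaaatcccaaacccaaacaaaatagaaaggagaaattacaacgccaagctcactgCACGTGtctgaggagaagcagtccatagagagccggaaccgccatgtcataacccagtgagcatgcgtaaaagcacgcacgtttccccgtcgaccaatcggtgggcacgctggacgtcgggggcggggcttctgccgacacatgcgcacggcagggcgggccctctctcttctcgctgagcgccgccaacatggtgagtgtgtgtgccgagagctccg
Dhtkd1: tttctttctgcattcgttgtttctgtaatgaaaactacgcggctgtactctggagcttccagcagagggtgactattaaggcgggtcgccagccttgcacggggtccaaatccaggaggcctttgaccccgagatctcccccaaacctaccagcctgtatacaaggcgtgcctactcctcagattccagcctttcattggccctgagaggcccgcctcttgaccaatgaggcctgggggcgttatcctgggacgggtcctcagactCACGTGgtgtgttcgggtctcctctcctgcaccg
Pcx: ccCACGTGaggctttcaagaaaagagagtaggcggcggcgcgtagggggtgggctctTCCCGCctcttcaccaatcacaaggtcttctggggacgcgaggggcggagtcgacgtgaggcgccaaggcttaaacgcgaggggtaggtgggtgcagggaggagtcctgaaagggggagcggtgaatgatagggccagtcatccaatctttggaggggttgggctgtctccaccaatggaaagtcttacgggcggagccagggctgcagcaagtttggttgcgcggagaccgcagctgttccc
CACGTG was found in 121 of 763 genes called higher without CKO 1 that had a promoter entry (15.9%), in 32 of 432 called lower (7.41%), in 11.01% of the genes tested and in 8.09% of all 27025 genes with an entry. TCCCGC, sought on both strands (TCCCGC or GCGGGA), was in 45.2% of those called higher, 38.9% of those called lower, 37.3% of the genes tested and 22.05% of all. An occurrence of one motif can share at most 1 end base with an occurrence of the other. Among the other genes chosen for naming, CACGTG was in a promoter of Eda2r, Sms and Adh1, which rose, of Hopx, Syt6 and Rspo4, which fell, and of Asb15, which was named for a stage difference. Asz1 held neither motif and Cyp46a1 held GCGGGA alone in this window. The shares are descriptions of these windows and were not tested.

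Genes that build ribosomes were higher. Of 40 tested ribosome biogenesis and nucleolar genes, 38 had a positive difference both over 8 libraries (median 0.26) and without CKO 1 (median 0.29, against -0.03 over all genes), and 14 rose without CKO 1. The background there was 5.71% of genes rising. For this and the lists below, 47.4% of all genes tested were positive over 8 libraries and 46.5% without CKO 1. Pno1, an assembly factor of the small subunit, was at 20.4, 21.3, 26.0 and 22.2 CPM in controls and 25.0, 42.1, 35.1 and 41.7 CPM in CKO lungs. Rrp12, an export factor of pre-ribosomes, was at 13.9, 10.3, 11.7 and 12.4 CPM and 17.2, 28.8, 19.2 and 27.03 CPM. The Rrp12 libraries did not overlap, while CKO 1 was below control 3 for Pno1 (without CKO 1, 1.05 ± 0.16 and 0.82 ± 0.11, edgeR adjusted p = 0.00661 and 0.00474). Fbl, the methyltransferase fibrillarin, rose by 0.69 ± 0.12, Nhp2, of the pseudouridylation particle, by 0.80 ± 0.12 and the nucleolar protein gene Npm1 by 0.40 ± 0.09. Cytosolic ribosomal protein genes were positive for 38 of 38 over 8 libraries (median 0.25) and for 37 without CKO 1 (median 0.29), where 13 rose. Rpl4 was at 890.1, 921, 963 and 1008 CPM in controls and 1059, 1295, 1217 and 1402 CPM in CKO lungs, with every CKO library above every control and CKO 1 the lowest of them (0.46 ± 0.08 without CKO 1, edgeR adjusted p = 0.0108). Their summed level was 13102 to 14815 CPM in controls, 15230.5 CPM in CKO 1 and 16360.1 to 17770.0 CPM in CKO 2 to 4. Mitochondrial ribosomal protein genes had a median of -0.00 without CKO 1, with 14 of 29 positive.

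Polyamine genes, whose products are made in growing cells, rose for 4 of 12 without CKO 1 (Srm, Mtap, Sms and Amd1, against a background of 5.71%). Srm, the spermidine synthase gene, was at 19.5, 18.1, 17.3 and 16.6 CPM in controls and 23.4, 31.3, 26.2 and 31.0 CPM in CKO lungs. All CKO libraries were above all controls and CKO 1 was the lowest of them (0.65 ± 0.12 over 8 libraries and 0.72 ± 0.11 without CKO 1, edgeR adjusted p = 0.162 and 0.00643). Odc1, the first enzyme of the pathway, was at 102 to 168 CPM in controls and 161 to 207 CPM in CKO 2 to 4 and did not pass (0.43 ± 0.16, adjusted p = 0.119, edgeR).

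Mitosis genes were higher in CKO 2, 3 and 4 and not in CKO 1. Of 34 mitosis genes 33 were positive without CKO 1 (median 0.31) and 14 rose, against a background of 5.71%. Ccnb1, the mitotic cyclin, was at 55.5, 53.9, 54.2 and 58.7 CPM in controls and 50.9, 87.5, 80.9 and 76.4 CPM in CKO lungs. CKO 1 was the lowest of the 8 libraries and the remaining CKO lungs were above all controls (0.55 ± 0.08 without CKO 1, edgeR adjusted p = 0.00542). Mki67, the proliferation marker, was at 351 to 420.2 CPM in controls, 492 to 537 CPM in CKO 2 to 4 and 304 CPM in CKO 1 (0.43 ± 0.08 without it). The summed level of the list was 2012 CPM in CKO 1, against 2081 to 2469 CPM in controls and 2726 to 2987 CPM in the other CKO lungs. DNA replication genes were positive for 31 of 36 (median 0.15), and 6 rose, among them Prim2, Gins4 and Gins3. Ccne1, the G1/S cyclin E1, rose by 1.58 ± 0.16 (edgeR adjusted p = 0.00198), from 11.8, 12.2, 12.8 and 13.2 CPM in controls to 44.8, 26.2 and 41.5 CPM in CKO 2, 3 and 4. CKO 1, at 14.7 CPM, was also above all controls, but by far less. Ccnd1, cyclin D1, fell by 0.52 ± 0.10 on the log2 scale, with 173, 148, 182 and 179.9 CPM in controls and 172, 114, 134 and 109.6 CPM in CKO lungs, where CKO 1 was at the level of control 1. In its list of 20 G1/S genes 4 rose (Ccne1, Rbl2, Cdk2 and Cdkn2c) and Ccnd1 fell. Of all genes 5.71% rose and 3.64% fell, so the share of the list that fell was near the background.

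Targets of p53 split within their list. Without CKO 1, 7 of 30 rose, Eda2r, Trp53inp1, Psrc1, Sesn1, Sesn2, Aen and Ccng1, against a background of 5.71%, and the list median was 0.14. Eda2r, a receptor of the TNF receptor family, was at 2.81, 1.91, 2.86 and 2.20 CPM in controls and 2.16, 7.81, 5.04 and 7.93 CPM in CKO lungs, so that CKO 1 lay within the controls and the others above them (1.499 ± 0.223 without CKO 1, edgeR adjusted p = 0.00661). Sesn2, a stress-induced regulator of mTORC1, rose by 0.66 ± 0.14. The best-known targets did not pass, with Cdkn1a, the p21 gene, at 0.01 ± 0.14 and Mdm2, the p53 ubiquitin ligase gene, at -0.05 ± 0.08 (edgeR adjusted p = 0.975 and 0.719).

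Partners of Sin3a in its complex were in part higher. Of 29 tested SIN3 and histone deacetylase complex genes, 22 were positive without CKO 1 (median 0.13) and 7 rose (Bbx, Sap130, Sap30, Ing2, Ing1, Kdm5b and Arid4b), against a background of 5.71%. Sap30 was at 4.46, 4.71, 5.96 and 5.85 CPM in controls and 5.96, 10.9, 7.99 and 13.5 CPM in CKO lungs. CKO 2, 3 and 4 lay above all controls, and CKO 1 was level with control 3 (1.04 ± 0.20 without CKO 1, edgeR adjusted p = 0.0138). Sap130, another subunit, was at 52.5, 52.5, 55.3 and 54.1 CPM and 65.3, 87.4, 66.4 and 80.9 CPM, with CKO 1 close to CKO 3 (0.54 ± 0.10, adjusted p = 0.0111, edgeR). The deacetylases had 0.18 ± 0.08 (Hdac1) and 0.13 ± 0.07 (Hdac2) and did not pass (edgeR adjusted p = 0.157 and 0.301).

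**Figure D3:**
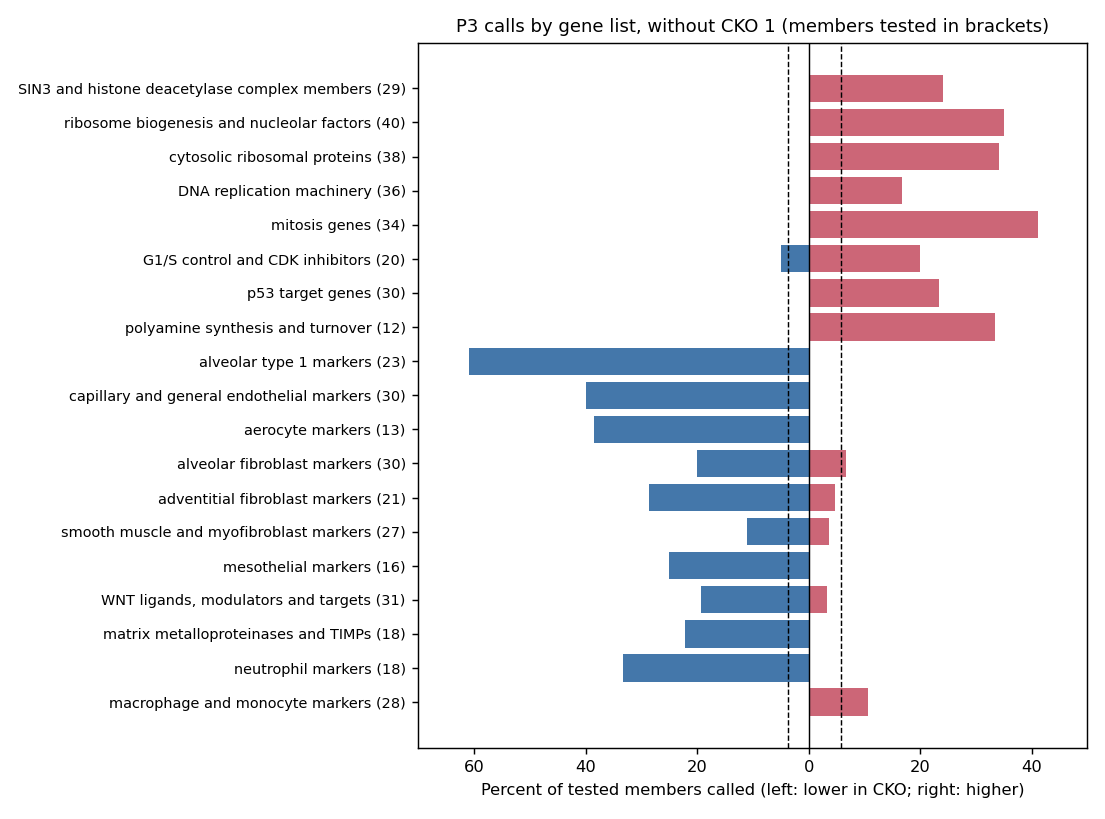
Percent of the tested members of 19 gene lists that were called without CKO 1, to the right (red) for higher and to the left (blue) for lower in CKO lungs, with the number tested in brackets. Dashed lines mark the shares over all genes, 5.71% higher and 3.64% lower. Growth and cell cycle lists lie to the right, and alveolar type 1, endothelial and most mesenchymal lists to the left.

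Alveolar type 1 markers, genes of the flat gas-exchange epithelium, were lower. All 23 had a negative difference over 8 libraries (median -0.25) and without CKO 1 (median -0.38), where 14 fell, against a background of 3.64%. Hopx, a transcriptional cofactor of these cells, was at 105, 123, 115 and 122 CPM in controls and 129, 86.1, 83.9 and 91.8 CPM in CKO lungs. CKO 1 was the highest of the 8 libraries and the other CKO lungs were below all controls (-0.41 ± 0.08 without CKO 1, edgeR adjusted p = 0.0147). Ager, the receptor RAGE, was at 697, 687, 625 and 813 CPM in controls and 765, 485, 549 and 462 CPM in CKO lungs, and Cldn18, a tight junction gene, fell by 0.36 ± 0.08 on the log2 scale. Their summed level was 9078 to 10342 CPM in controls, 10193 CPM in CKO 1 and 7292 to 8301 CPM in CKO 2 to 4. Type 2 markers had a median of -0.10 without CKO 1, and 1 of 24 fell, while Sftpc was at -0.14 ± 0.12 (edgeR adjusted p = 0.479). In bulk libraries fewer cells of a type and less RNA per cell cannot be told apart.

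Endothelial markers were lower in the same libraries. Each of the 30 markers of capillary or general endothelium was negative over 8 libraries (median -0.30) and without CKO 1 (median -0.46), and 12 fell without CKO 1, where 3.64% of all genes fell. Cldn5, the endothelial claudin, was at 155, 179, 125 and 154 CPM in controls and 139.9, 84.2, 104 and 85.8 CPM in CKO lungs. CKO 1 was within the range of the controls and the other CKO lungs were below it (-0.75 ± 0.12 without CKO 1, edgeR adjusted p = 0.00888). Kdr, the VEGF receptor, and Pecam1 fell by 0.39 ± 0.10 and 0.37 ± 0.10 on the log2 scale, and Kit and Glp1r, of the general capillary, by 0.64 ± 0.14 and 0.72 ± 0.19. Of 13 markers of aerocytes, the capillary cells specialised in gas exchange, all were negative and 5 fell (background 3.64%), among them Car4, at 96.5, 83.3, 80.9 and 97.9 CPM in controls and 96.1, 58.2, 69.5 and 49.4 CPM in CKO lungs. The summed level of the 30 genes was 7024 to 7771 CPM in controls, 7338 CPM in CKO 1 and 4902 to 6312 CPM in CKO 2 to 4.

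Among markers of the mesenchyme, where Cre is made, more fibroblast genes fell than rose. Of 30 alveolar fibroblast markers 6 fell (Bmper, Npnt, Mfap4, Inmt, Spon1 and Foxf1) and 2 rose (Adh1 and Meox2) without CKO 1, with a median of -0.23. Of all genes 3.64% fell and 5.71% rose, so the share of the list that rose was near the background. Inmt, a methyltransferase gene abundant in these cells, was at 7.58, 14.005, 10.5 and 11.8 CPM in controls and 13.5, 0.877, 4.4001 and 1.25 CPM in CKO lungs. CKO 1 was at the level of the highest controls and the other CKO lungs were far lower, so that the log2 difference was -1.14 ± 0.77 with CKO 1 and -2.33 ± 0.56 without it (edgeR adjusted p = 0.522 and 0.0458). Adh1, an alcohol dehydrogenase gene, was at 497, 424, 488 and 488 CPM and 517, 742, 679 and 757 CPM, above every control in all 4 CKO lungs (0.61 ± 0.08 without CKO 1, adjusted p = 0.00474, edgeR). Foxf1, a transcription factor of lung mesenchyme and endothelium, was at 196 to 293 CPM in controls and 131 to 169 CPM in CKO 2 to 4 (-0.62 ± 0.16). Tbx4, whose enhancer drives the transactivator, was at 204, 184, 177 and 218 CPM in controls and 249, 196, 203 and 178 CPM in CKO lungs and did not pass (-0.03 ± 0.09, edgeR adjusted p = 0.882).

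Adventitial fibroblast markers fell for 6 of 21 (Cd34, Gsn, Dpp4, Il33, Dpt and Pcolce2), and Ccl11 rose, where 3.64% of all genes fell and 5.71% rose. Dpt, dermatopontin of the matrix, was at 249 to 337 CPM in controls, 83.2 to 176 CPM in CKO 2 to 4 and 190.1 CPM in CKO 1 (-1.39 ± 0.31 without CKO 1, edgeR adjusted p = 0.0423). Gsn, the actin-severing gelsolin, was at 480.4, 384, 396 and 504 CPM in controls and 529, 216, 312 and 186 CPM in CKO lungs, with CKO 1 the highest of all. Of 27 smooth muscle and myofibroblast markers 3 fell (Tgfbi, Stc1 and Hhip) and 1 rose, the latter below the background of 5.71%. That gene was Acta2, smooth muscle actin, at 752, 689, 634 and 613 CPM in controls and 694, 1169, 837 and 989 CPM in CKO lungs, where CKO 2, 3 and 4 were above all controls (0.57 ± 0.12 without CKO 1, edgeR adjusted p = 0.0175). Its neighbours on the list, Myh11 and Tagln, had negative differences that did not pass (-0.32 ± 0.15 and -0.22 ± 0.12, edgeR adjusted p = 0.223 and 0.276). Stc1, a secreted stanniocalcin, was at 18.5, 37.3, 30.2 and 19.6 CPM and 12.0, 9.03, 12.2 and 10.7 CPM, lower than every control in all 4 CKO lungs. Mesothelial markers fell for 4 of 16 (Msln, Aldh1a2, Upk1b and Upk3b, median -0.42), against the same 3.64%.

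Modulators of WNT signalling were among the genes that fell. Of 31 genes of the pathway 6 fell without CKO 1 (Shisa2, Nkd1, Nkd2, Notum, Wnt5b and Wif1) and Shisa3 rose, with a median of -0.28. The background was 3.64% lower and 5.71% higher, so the single riser was below it. Notum, which inactivates WNT ligands, was at 4.05, 4.48, 3.07 and 4.90 CPM in controls and 4.97, 0.962, 2.32 and 0.540 CPM in CKO lungs. CKO 1 was the highest of the 8 libraries, and the log2 difference was -0.92 ± 0.55 with it and -1.68 ± 0.42 without it (edgeR adjusted p = 0.459 and 0.0383). Rspo4, an R-spondin that enhances WNT signals and is outside the list, was at 4.49, 5.99, 2.19 and 5.44 CPM and 2.34, 0.792, 2.06 and 0.844 CPM (-1.87 ± 0.44, adjusted p = 0.0330, edgeR). The transcriptional targets Axin2 and Lef1 did not pass (0.18 ± 0.12 and -0.60 ± 0.17, edgeR adjusted p = 0.349 and 0.0532). Other genes with the largest falls were Syt6, Saa3, Cacnb4, Frrs1l, Gria1, Colq and the long noncoding AI838599. Syt6, a synaptotagmin of exocytosis, was at 7.85, 13.7, 11.9 and 9.84 CPM in controls and 11.8, 1.08, 3.94 and 0.574 CPM in CKO lungs. CKO 1 was among the controls, while CKO 2, 3 and 4 were below all of them (-2.52 ± 0.61 without CKO 1, adjusted p = 0.0487, edgeR). All 18 matrix metalloproteinase and TIMP genes were negative (median -0.35), and 4 fell (background 3.64%), Mmp9, Timp1, Adamts2 and Mmp15.

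Neutrophil and lymphocyte markers were lower with CKO 1 on the side of the other CKO lungs. Over 8 libraries 17 of 18 were negative with a median of -0.83, and without CKO 1 the median was -0.91 and 6 fell (Csf3r, Mmp9, Ly6g, Cxcr2, Ngp and Retnlg), against 3.64% of all genes. Csf3r, the receptor for G-CSF, was at 19.4, 30.3, 29.3 and 24.5 CPM in controls and 19.2, 15.1, 13.4 and 14.2 CPM in CKO lungs. Control 1 was barely above CKO 1, the highest CKO library (-0.74 ± 0.16 over 8 libraries and -0.86 ± 0.15 without CKO 1, edgeR adjusted p = 0.162 and 0.0111). Ngp, a granule protein gene, was at 22.6 to 45.1 CPM in controls, 10.5 to 20.2 CPM in CKO 2 to 4 and 15.9 CPM in CKO 1. The summed level of the list was 289.6 to 536 CPM in controls, 260.1 CPM in CKO 1 and 275 to 375 CPM in CKO 2 to 4, so the sums overlapped. Of 26 lymphocyte markers 25 were negative over 8 libraries (median -0.54), and without CKO 1 the median was -0.49. Only 2 of 27 tested there fell (7.41%, against 3.64% of all genes). Their mean log2 CPM was 0.61 to 1.09 in controls, 0.19 in CKO 1 and -0.25 to 0.65 in CKO 2 to 4, so CKO 1 was below all controls while the groups overlapped. Platelet and megakaryocyte markers were negative for 11 of 12 over 8 libraries (median -0.34), and 3 fell without CKO 1 (Tubb1, Itgb3 and Itga2b). There CKO 1, at a mean log2 CPM of 2.20, lay within the controls (1.76 to 2.26) and the other CKO lungs below them (1.51 to 1.71). Of 28 macrophage and monocyte markers 3 rose, Ly86, Marco and Ear2, where 5.71% of all genes rose, and the median was 0.05. Marco, a scavenger receptor of alveolar macrophages, was at 7.48, 5.26, 7.52 and 6.42 CPM in controls and 10.9, 14.4, 9.99 and 14.9 CPM in CKO lungs, without overlap (0.97 ± 0.18 without CKO 1, edgeR adjusted p = 0.0137), whereas the general markers Mrc1 and Cd68 were at -0.02 ± 0.15 and 0.05 ± 0.14 and did not pass.

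The lungs of E16 and P0 are other animals with their own controls and gave a check of the P3 calls in separate libraries. Those controls are titled Sin3a F/+ and the P3 controls Sin3a F/F, so the comparisons also differ in control genotype by title. Over all genes tested, 48.1% at E16 and 46.7% at P0 were positive (medians -0.01 and -0.02), and 51.9% and 53.3% were negative. Of the genes called higher at P3 without CKO 1, 930 of 974 tested at E16 (95.5%) and 942 of 985 at P0 (95.6%) were also positive there, with medians of 0.27 and 0.39. At an unadjusted p under 0.05, 501 of them (51.4%) were higher at E16 and 329 (33.4%) at P0, where 6.57% and 3.46% of all genes were. Of the genes called lower, 569 of 617 (92.2%) and 584 of 630 (92.7%) were negative, with medians of -0.21 and -0.36, and 128 (20.7%) and 142 (22.5%) had an unadjusted p under 0.05, against 3.96% and 2.98% of all genes. Cyp46a1 was at 1.87 ± 0.33 at E16 and 2.89 ± 0.56 at P0, Shisa3 at 2.09 ± 0.29 and 2.05 ± 0.27, Ccne1 at 1.00 ± 0.22 and 1.55 ± 0.42 and Rrp12 at 0.84 ± 0.21 and 1.301 ± 0.301. Asz1 was at 0.74 ± 0.34 at E16, with an unadjusted p of 0.0559, and 2.02 ± 0.52 at P0, and Ccl11 at 0.70 ± 0.15 and 2.71 ± 0.61. Other P3 genes had smaller or less certain differences at one or both of these stages. Tmem100 was at -0.05 ± 0.12 at E16 but at -0.72 ± 0.64 at P0, about its P3 size with a wide error. Csf3r was at -0.09 ± 0.26 and -0.02 ± 0.31, Pde3a at 0.07 ± 0.21 and -0.22 ± 0.20 and Colec10 at 0.35 ± 0.23 and 0.27 ± 0.71.

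**Figure D4:**
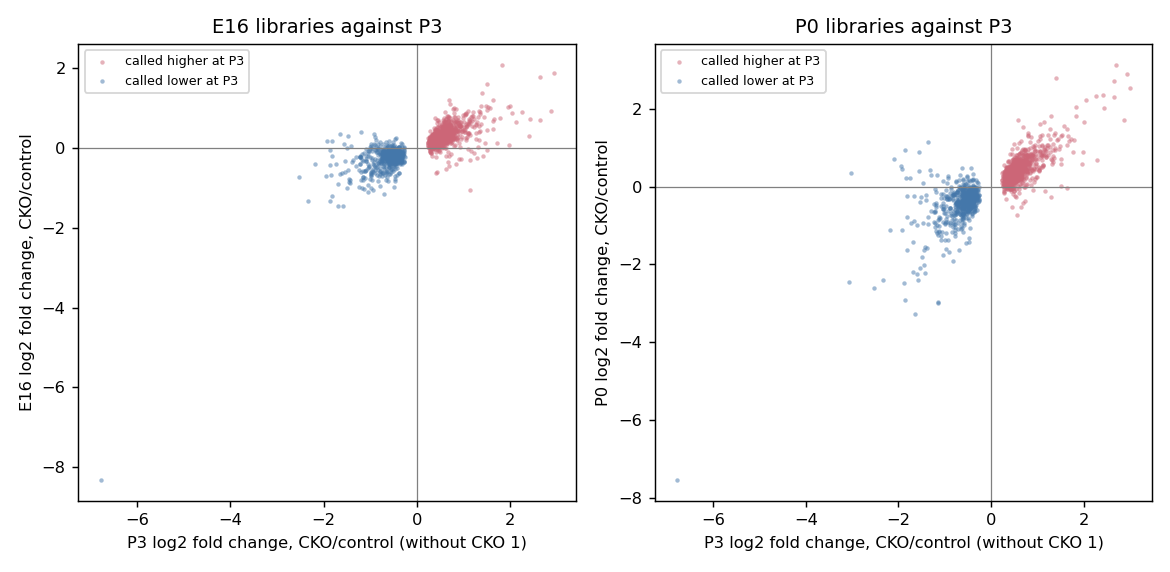
Log2 fold change at E16 (left) and P0 (right) against that at P3 without CKO 1 for the genes called at P3, with those called higher in red and those called lower in blue. Of the red points 95.5% and 95.6% lie above 0, and of the blue points 92.2% and 92.7% lie below 0, with Gm9008 at the lower left.

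Because controls are titled Sin3a F/F at P3 but Sin3a F/+ at E16 and P0, stage and control genotype cannot be told apart. A difference of the CKO effect between stages was tested as an interaction in one fit of 24 libraries. It called 0 genes for P3 against E16 and 0 for P3 against P0 (edgeR, 18415 genes tested; at an unadjusted p under 0.05 they were 212, or 1.15%, and 423, or 2.3%). Without P3 CKO 1 the test again called 0 and 0 (320, or 1.71%, and 411, or 2.2%, at an unadjusted p under 0.05). A call at P3 and none at another stage is thus no measured difference between them. Nor do these counts of 0 show that the effects were alike. Without P3 CKO 1, the fit across stages called 153 genes at P3, where P3 fitted alone called 1625. The genes with the smallest interaction p included Ptger4, at -0.12 ± 0.23 at E16 and 1.11 ± 0.20 at P3 (difference 1.25 ± 0.35, edgeR adjusted p = 1.00), and Trim12c, at 0.15 ± 0.12 and -0.68 ± 0.13 (difference -0.81 ± 0.21, adjusted p = 1.00, edgeR). Acta2 was at 1.71 ± 0.28 at P0 and 0.46 ± 0.15 at P3 (difference -1.26 ± 0.29, edgeR adjusted p = 1.00).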

How the data were processed

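Whole-lung RNA was sequenced by the authors with an Illumina TruSeq preparation, per the labels. The deposited table holds expected counts per gene, made with STAR 2.5.3a and RSEM 1.3.0 on mm10 and listed with edgeR, per the submitters' processing notes; the values were whole numbers as deposited. For the annotation, strand setting and count filters nothing was given in the sources used here. Identifiers were matched to GENCODE vM21, with 51633 of 51912 found.

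Expected counts were tested with edgeR 4.0.16 (R 4.3.3) after filterByExpr and TMM scaling, using robust quasi-likelihood fits of the 8 P3 libraries and, separately, of the 7 without CKO replicate 1, with Benjamini-Hochberg adjustment over all genes tested and a threshold of 0.05. The biological coefficient of variation was 0.188 over 8 libraries and 0.168 over 7. Within-group pairs of libraries differed by more than sampling noise, so all were counted separately. Alternatives used DESeq2 1.42.0 and limma 3.58.1. Near-identical transcripts were sought with BLAST 2.17.0. Tests were tried on simulated counts. RefSeq promoters (GRCm38.p6) matched 71 of 97 named genes. Figures used matplotlib 3.10.9 and Python 3.11.15.

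The genes named are Sin3a and Sin3b, the genes called over 8 libraries, the 8 per direction with the smallest p among those with a mean log2 CPM of at least 1 and no overlap of 4 and 4 libraries, the 10 called per direction with the largest change without CKO 1, up to 3 members per described list, and the 3 per direction with the smallest p of each interaction. Predicted loci and sex-linked markers were passed over in the rankings, and other list members are named as counted. Rnf26, Pkm, Malat1, Tbx4 and Slc7a10 were chosen after their values were seen. Members, the 70 lists (1390 of 1399 genes found) and the 19 described were chosen with earlier results of these data known.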

Additional observations from a re-analysis of the deposited data

Results flagged for a closer look

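In 97 named genes and 194 groups of 4 P3 libraries, 8 groups held a library whose distance to its nearest neighbour, divided by the range of the group, exceeded Dixon's critical value for 4 values. Chance gives such a distance in about 1 in 20 groups. CKO 1 was low for Cenpf, a kinetochore gene, at 71.4 CPM, and for Ear2, an eosinophil-associated ribonuclease gene, at 28.9 CPM. Control libraries were low for Tmem100 (control 1, 240 CPM), Adh1 (control 2, 424 CPM) and Adamts2 (control 4, 190 CPM), 3 of the genes called without CKO 1. Of the genes named for a stage difference, BC065403 was at 0.0283 CPM in CKO 2 and at 0 in the other CKO lungs, Trim34b was at 1.96 CPM in CKO 4, and Xpnpep2 was at 4.86 CPM in CKO 3.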

How the results depend on the processing

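The 2 genes called over 8 libraries were again 2 in number under median-of-ratios scaling, library size alone, a filter of 1 CPM, limma-voom, non-robust dispersions and removal of GC trends. The count was 6 with no filter, 579 with DESeq2, 1162 with sample quality weights, 1 with the identifier prefix (23 or 9902, whose meaning the labels do not give) as a block, 14 in the fit of 24 libraries and 286 with the Xist class as a covariate. Leaving out 1 library gave 1 to 1625 genes: 1625 without CKO 1, 13 without control 1 and 1 without control 2, control 3, control 4 or CKO 3. The Xist and GC alternatives were chosen after seeing the data.

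Without CKO 1, the 1625 calls were 2711 with DESeq2, 3604 with sample quality weights and 153 in the fit of the other 23 libraries. Leaving out a further library gave 86 to 2482, the extremes being those without CKO 2 and without CKO 3, with 199 without CKO 4, 425 without control 4 and 647 without control 2. Kept calls were counted for 73 genes called without CKO 1 and named from that fit or from a list. Genes named only from the 8 libraries are not among them. Of the 73, 72 kept the call with DESeq2, 73 with the Xist class and 72 with GC trends removed. The call was kept by 16 in the fit of 23 libraries, 12 without CKO 2 and 21 without CKO 4. All 73 had the same sign within both identifier prefixes. They were called on these same libraries, which largely fixed the signs beforehand, so this count is no separate check. The cause of these changes was not tested. No named gene changed sign under the alternatives run for it. Genes named only for a stage difference were not run under these alternatives. The balance of the 8-library count did turn, from 0 higher and 2 lower to 3 and 3 with no filter, 398 and 181 with DESeq2, 686 and 476 with quality weights, 204 and 82 with the Xist class and 9 and 5 in the fit of 24 libraries. The stage interactions gave 1 gene each without P3 CKO 4 and 0 otherwise. Scaling moved the median of all genes by less than 0.01.

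Same-numbered P3 libraries did not deviate together (r of 0.125, 0.107, -0.240 and -0.0811 for numbers 1 to 4), so the numbers were not read as pairs. With the replicate block 0 genes passed over 8 libraries and 304 without CKO 1, and the interactions stayed at 0 and 0.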

Other observations

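Mitochondrial enzymes that break down branched-chain amino acids, lysine, glycine and propionate formed a further group, put into a list after Dhtkd1 and its like had been seen among the risers, so its count supports nothing. Of 45 tested members 36 were positive without CKO 1 (median 0.29), and 19 rose and 1 fell, where 5.71% of all genes rose and 3.64% fell. Over 8 libraries 37 of 45 were positive (median 0.22), as were 37 of 46 at E16 (median 0.16) and 34 of 45 at P0 (median 0.12). Aldh6a1, of valine and propionate breakdown, was at 1.11 ± 0.11 without CKO 1, Abat, of GABA and valine breakdown, at 1.33 ± 0.14, Gcdh, of lysine breakdown, at 0.96 ± 0.13 and Oxct1, of ketone body use, at 0.75 ± 0.10. Mmab, of the cobalamin pathway, was the member that fell, at -0.41 ± 0.11.

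Predicted loci Gm26825 and Gm15459 separated control 1 from the other controls. Gm26825 was at 1.27, 134, 145 and 121 CPM in controls 1 to 4 and 2.02, 3.20, 2.32 and 2.56 CPM in CKO 1 to 4. Gm15459 was at 13.99, 98.7, 128 and 88.6 CPM and 12.4, 15.7, 14.7 and 16.6 CPM. For both, control 1 was at the level of the CKO lungs. Both were picked after their values were seen.

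On chromosome 9, which holds Sin3a, lay 3 of the 10 lower genes named from the 8 libraries (30.0%: AC160637.1, Pts and Cd276) and 0 of the 8 higher ones, where 999 of 17113 tested genes (5.84%) lie. Among the 633 genes called lower without CKO 1 the share was 7.11%. Slc7a10, an amino acid transporter gene, was at 24.01, 26.6, 19.99 and 26.2 CPM in controls and 22.9, 2.49, 8.37 and 1.05 CPM in CKO lungs, and did not pass without CKO 1 (-2.60, edgeR adjusted p = 0.0614).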
